A study of Homo sapiens with 24 samples.

Results

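The genes described here encode the enzymes that copy DNA at the replication fork in human cells and the clamp that holds them to it. The 10 genes were chosen by name: PRIM1, PRIM2, POLA1 and POLA2 (primase and DNA polymerase alpha), POLD1 and POLD3 (DNA polymerase delta), POLE and POLE2 (DNA polymerase epsilon), RFC2 (clamp loader) and PCNA (the sliding clamp). All 10 were found, by Ensembl identifier, among the 12285 genes of the deposited expression table. The cells were K562, an established human leukaemia line with erythroid features, grown in suspension in RPMI with 10% bovine calf serum and penicillin and streptomycin. Synchronous cells were collected by centrifugal elutriation, which sorts cells by size, and total RNA was sequenced every 2 h from 0 h to 46 h after elutriation. Each of the 24 time points is 1 library of 1 untreated culture, so time is the only variable and there are no replicates. The study named 16 h and 18 h as STRIPEs, and 32 h as a mild case. STRIPEs are libraries whose levels depart from the neighbouring time points across the transcriptome. The study proposes that they are technical anomalies and not biological changes, and did not find the step that causes them.

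At a replication fork, primase lays down a short RNA primer that polymerase alpha extends with DNA. The clamp loader then opens the PCNA ring and closes it round the primed DNA, and PCNA tethers polymerase delta for the lagging strand, while polymerase epsilon copies the leading strand together with the helicase. Many genes of this machinery are targets of E2F factors, which switch on transcription at the passage from G1 to S phase, so their transcripts are classical cell cycle markers.

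The promoter windows are shown first because short words of the E2F consensus are a feature that 7 of the genes share near the start of transcription. RefSeq (build GRCh38.p14) gave 12 windows for 9 of the 10 genes, each running from 250 bases before to 50 bases after the start of transcription; POLD3 had no entry. The core word TTGGCGC was searched on both strands. Its variant TTCGCGC was searched in the same way. The last variant was TTCCCGC. At least 1 of them was present in 7 of the 12 windows, those of PCNA, POLA1, POLA2, PRIM1, POLE, POLE2 and RFC2, against 11.03% of all 35116 windows of that length and 16.9% of the 12852 windows of genes in the expression table. CCAAT was present in 5 windows of 4 genes (34.6% of all windows), and the core of the cell cycle homology region found in G2/M promoters (TTTGAA, with TTTAAA as its variant) in 1 window, of PRIM2 (24.0% of all windows). The sequences below run from 150 bases before to 5 bases after the start, 5′ to 3′ on the strand of the gene, with the E2F words in capitals. These are the 7 genes with a match and, without one, the first window of POLD1.
PCNA, chr20:5126618-5126772, minus strand: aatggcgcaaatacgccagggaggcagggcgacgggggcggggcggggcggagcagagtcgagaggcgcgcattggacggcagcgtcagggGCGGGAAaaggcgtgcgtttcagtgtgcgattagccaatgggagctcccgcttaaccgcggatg
POLA1, chrX:24693768-24693922, plus strand: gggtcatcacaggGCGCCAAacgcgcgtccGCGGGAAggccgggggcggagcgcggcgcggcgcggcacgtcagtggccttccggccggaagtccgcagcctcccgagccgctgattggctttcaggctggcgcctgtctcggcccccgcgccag
POLA2, chr11:65261812-65261966, plus strand: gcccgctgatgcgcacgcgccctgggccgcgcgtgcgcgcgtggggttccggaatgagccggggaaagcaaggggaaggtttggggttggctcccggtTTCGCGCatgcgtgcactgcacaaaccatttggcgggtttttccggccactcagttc
PRIM1, chr12:56752319-56752473, minus strand: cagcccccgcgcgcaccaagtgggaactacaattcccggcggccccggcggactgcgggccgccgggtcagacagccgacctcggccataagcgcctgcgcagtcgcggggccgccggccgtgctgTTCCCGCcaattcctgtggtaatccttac
POLE, chr12:132687338-132687492, minus strand: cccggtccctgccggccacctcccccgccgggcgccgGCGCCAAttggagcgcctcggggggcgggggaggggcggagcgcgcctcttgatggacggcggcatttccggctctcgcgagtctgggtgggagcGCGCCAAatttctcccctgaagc
POLE2, chr14:49688210-49688364, minus strand: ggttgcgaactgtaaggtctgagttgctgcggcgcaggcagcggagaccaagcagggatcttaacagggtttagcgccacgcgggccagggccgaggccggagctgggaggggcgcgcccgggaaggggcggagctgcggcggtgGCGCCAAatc
RFC2, chr7:74254395-74254549, minus strand: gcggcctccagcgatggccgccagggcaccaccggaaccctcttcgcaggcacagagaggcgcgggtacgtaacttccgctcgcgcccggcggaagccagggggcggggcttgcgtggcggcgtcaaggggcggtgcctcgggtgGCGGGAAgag
POLD1, chr19:50384173-50384327, plus strand: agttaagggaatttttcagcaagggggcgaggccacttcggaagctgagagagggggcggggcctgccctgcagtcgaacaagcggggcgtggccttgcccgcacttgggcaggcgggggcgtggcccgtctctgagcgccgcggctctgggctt
POLE2 and RFC2 carry their word across the start itself, from 5 bases before it to the base at position 2. In PRIM1 the last base of the E2F word, 18 bases before the start, is also the first base of a CCAAT word, and in POLE the first E2F word overlaps a CCAAT word by 4 bases. POLA1 holds 3 words, of which the one from position 17 to 23 lies beyond the part shown. A match of letters is a description of the window and not a binding site.

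The libraries were checked against markers before the genes were read. All 10 erythroid markers were in the table, with HBG2, the gene for a fetal globin chain, at a median of 2457 FPKM (fragments per kilobase of transcript, scaled for library size). Of the lymphoid, fibroblast and monocyte markers, CD3D, COL1A2 and LYZ were in the table at medians of 5.96, 2.89 and 21.9 FPKM, and 12 others were not in it. The FPKM values of a library summed to between 456791 and 520382 outside 16 h and 18 h and to 566247 and 591309 at those time points. At 16 h and 18 h, 6 of the 10 erythroid markers stood more than 2-fold below the flanking time points, beside 7.11% of all genes. Above them by more than 2-fold stood 1 of the 10, beside 8.95% of all genes. Ranges in the text therefore use the 22 other time points, and the values at 16 h and 18 h are given apart.

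FPKM is a level per transcript length, so levels can be set side by side between genes. PCNA was by far the most abundant of the 10 transcripts, at 165 FPKM at its lowest (32 h), a median of 196 and 272 at its highest (4 h). RFC2, PRIM1, POLD1 and POLE followed at medians of 78.0, 74.5, 74.0 and 61.7 FPKM. POLA2 and POLE2 lay lower, at medians of 42.0 and 36.4 FPKM, and PRIM2, POLA1 and POLD3 lowest, at 20.3, 19.6 and 14.9 FPKM. Between neighbours in this order, PCNA exceeded RFC2, POLE exceeded POLA2, POLE2 exceeded PRIM2 and POLA1 exceeded POLD3 at all 22 time points. The levels of RFC2 and PRIM1 (RFC2 higher at 17 of 22), PRIM1 and POLD1 (PRIM1 higher at 12) and PRIM2 and POLA1 (PRIM2 higher at 16) crossed, and so did those of POLD1 and POLE and of POLA2 and POLE2, where the first was higher at 20 of 22 time points each. The catalytic and the large primase subunit, PRIM1 and PRIM2, differed by a median ratio of 3.54 and POLD1 and POLD3 by 4.97, while PRIM2 and POLA1, of the same complex, had a median ratio of 1.07.

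**Figure D1:**
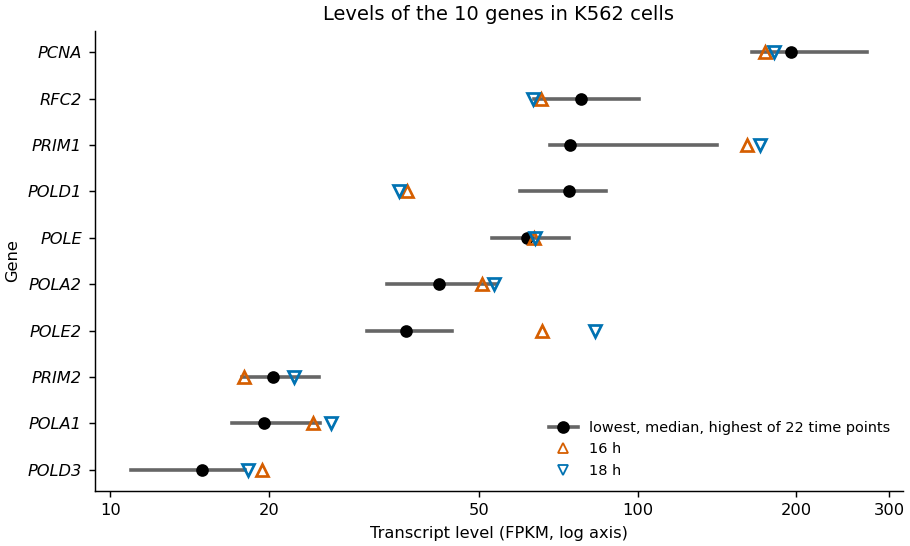
Transcript level in FPKM (log axis) of the 10 genes, with the line running from the lowest to the highest of the 22 time points outside 16 h and 18 h, the black point at the median and open triangles at 16 h and 18 h. PCNA stands alone at a median of 196 FPKM. At 16 h and 18 h PRIM1, POLE2 and, by little, POLD3 lie to the right of their own range while POLD1 lies to the left. At 18 h alone POLA1 lies to the right and RFC2 just to the left.

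Primase and polymerase alpha, which work as 1 complex, did not follow a common course. PRIM1, the catalytic primase subunit, ran between 68.2 FPKM (36 h) and 141 FPKM (32 h) with a median of 74.5, and its next highest value was 112 FPKM at 6 h. Its values at 6 h and 32 h stood 1.42-fold and 1.80-fold above the mean of their neighbouring time points. PRIM2, the large primase subunit, ran from 17.7 FPKM (2 h) over a median of 20.3 to 24.8 FPKM (28 h). POLA1, the catalytic subunit of polymerase alpha, ran from 16.99 FPKM (20 h) over 19.6 to 24.99 FPKM (28 h). PRIM2 and POLA1 were both at their highest at 28 h and both high at 22 h and 30 h, at 23.9 FPKM at each of these 2 times for PRIM2 and at 21.7 and 23.9 FPKM for POLA1. POLA2, the accessory B subunit, was at its lowest at 0 h (33.5 FPKM), climbed to 53.8 FPKM at 6 h and had a median of 42.0. Its highest value of the second day was 46.4 FPKM at 34 h.

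POLD1, the catalytic subunit of polymerase delta, ran from 59.9 FPKM (22 h) over a median of 74.0 to 87.1 FPKM (8 h). POLD3, an accessory subunit of the same enzyme, went the other way at those hours, with its lowest value of 10.96 FPKM at 8 h, a median of 14.9 and its highest of 18.0 FPKM at 4 h. Its lowest value of the second day was 11.4 FPKM at 34 h. POLE, the catalytic subunit of polymerase epsilon, ran from 53.0 FPKM (20 h) over 61.7 to 74.2 FPKM (2 h). POLE2, its accessory subunit, ran from 30.7 FPKM (22 h) over 36.4 to 44.5 FPKM (32 h). The highest value exceeded the lowest 1.40-fold for POLE, 1.45-fold for POLE2 and POLD1 and 1.64-fold for POLD3.

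RFC2, a small subunit of the clamp loader, showed a swing on each day. Its first high was 91.1 FPKM at 4 h, its low 63.5 FPKM at 14 h and its second high 101 FPKM at 30 h, with a median of 78.0. PCNA swung mainly on the first day, from 195 FPKM at 0 h to 272 FPKM at 4 h and down to 184 FPKM at 20 h. On the second day it ran between 165 FPKM (32 h) and 213 FPKM (26 h). The ratio of the highest to the lowest value of PCNA was 1.48 on the first day and 1.29 on the second, while RFC2 had 1.43 and 1.47. As these are bulk libraries, fewer cells in a stage and less RNA per cell cannot be told apart.

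**Figure D2:**
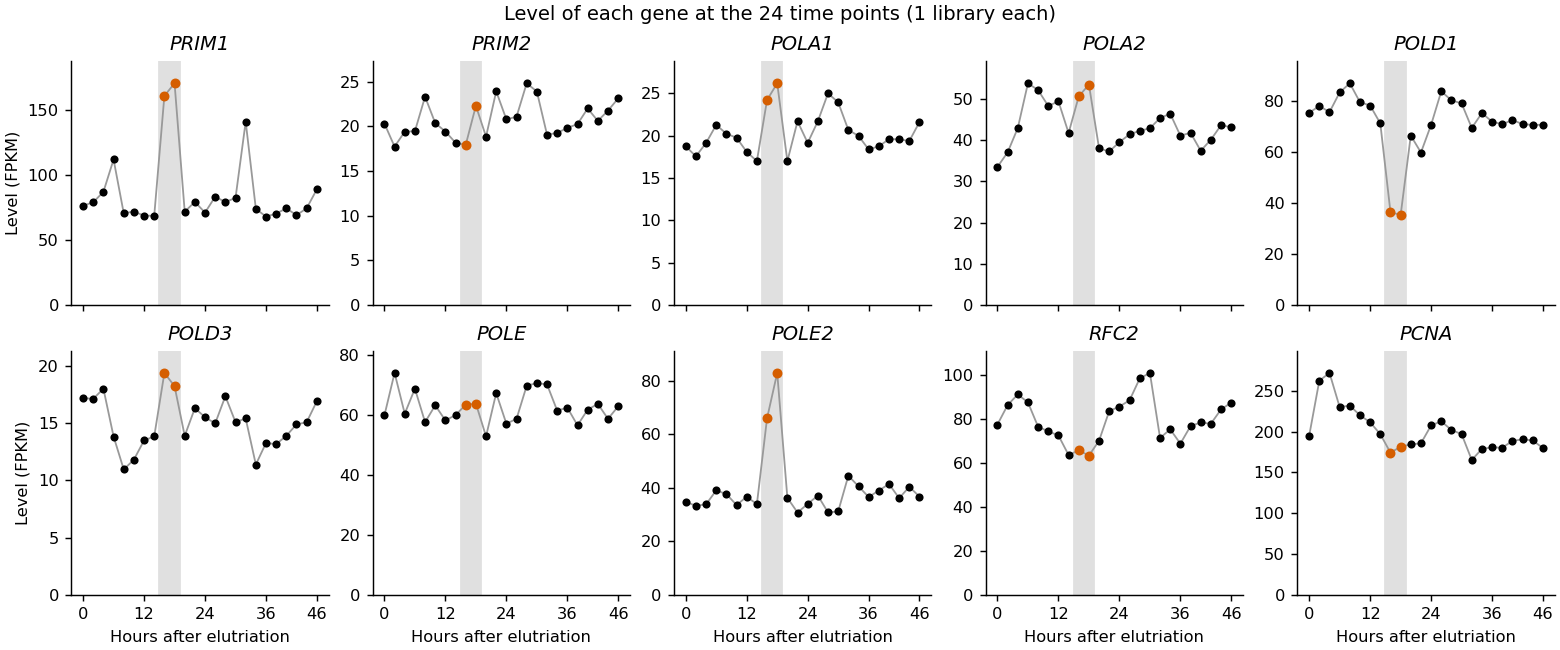
Level in FPKM of each gene at the 24 time points (hours after elutriation), 1 library per point, each axis starting at 0, with 16 h and 18 h in orange on grey. PRIM1 and POLE2 spike and POLD1 drops at 16 h and 18 h, RFC2 is high round 4 h and round 30 h, and PCNA is highest at 4 h with 272 FPKM.

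Whether the levels repeated with a 24 h cycle was asked with the JTK statistic, which measures how well the order of the values follows a cosine. POLD1 and RFC2 were called: POLD1 with an adjusted p of 0.00902 and a fitted phase of 6 h, RFC2 with an adjusted p of 0.0118 and a phase of 4 h (JTK permutation p, Benjamini-Hochberg over all genes). These 2 of 10 stand beside 13% of all 12285 genes. POLD3 came next with an adjusted p of 0.0577, followed by PCNA (0.0999), POLA2 (0.165), POLE2 (0.239), PRIM1 (0.312), PRIM2 (0.630) and POLA1 and POLE (both 0.678). The count rests partly on 16 h and 18 h, where POLD1 had its lowest values, 36.5 and 35.3 FPKM. Without them JTK called 5 of 10, beside 16.2% of all genes. These were POLD3 (adjusted p = 0.0197), RFC2 (0.0262), POLD1 (0.0349), and POLA2 and PRIM1 (both 0.0475). The permutations treat the time points of 1 culture as exchangeable, so slow drift also lowers these p-values.

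A 24 h cosine fitted with limma to log2(FPKM + 1) over the 22 time points gave the size and time of the swing. RFC2, POLD3, POLA1 and POLA2 were called, 4 of 10 beside 14.2% of the 12253 genes tested. RFC2 had an amplitude of 0.21 ± 0.04 (SE, n = 22 time points) log2 units, which is a peak 1.35-fold above the trough, with the peak at 3.0 ± 0.6 h (adjusted p = 0.00749). POLA1 peaked at 4.5 ± 0.6 h with an amplitude of 0.17 ± 0.04 (adjusted p = 0.0155) and POLA2 at 8.7 ± 1.0 h with 0.16 ± 0.04 (adjusted p = 0.0274). POLD3 peaked at 0.3 ± 0.9 h with an amplitude of 0.19 ± 0.04 (adjusted p = 0.0142). The 4 peaks therefore spread over the first 9 h of the cycle, with POLD3 before and POLA2 after the others. The calls of POLA1 and POLA2 were lost with 16 h and 18 h included (3 genes called, with POLD1 in their place), that of POLA2 also without 0 h (adjusted p = 0.0624) and with summed FPKM (0.0821), and that of POLA1 also without the linear term (0.143).

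The other 6 genes did not pass. Without 6 h and 32 h as well, PRIM1 (amplitude 0.13, adjusted p = 0.0245) and POLD1 (0.14, adjusted p = 0.0408) passed the limma fit too. That made 6 of 10, beside 1329 of the 12253 genes tested, fewer than the 1736 of the main fit. PRIM1 had the largest amplitude of the 10, 0.24, but also the largest error, ± 0.08, and an adjusted p of 0.0787. POLD1, called by JTK, had an amplitude of 0.11 ± 0.04 and an adjusted p of 0.0757. PCNA, at 195 FPKM at 0 h and 272 FPKM at 4 h, had an amplitude of 0.06 ± 0.05 (adjusted p = 0.510), POLE 0.11 ± 0.04 (0.149), PRIM2 0.08 ± 0.04 (0.276) and POLE2 0.06 ± 0.04 (0.396). The median amplitude was 0.14 over the 10 genes and 0.10 over all genes tested. On the scale used, low transcripts such as POLD3 have their changes slightly understated.

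**Figure D3:**
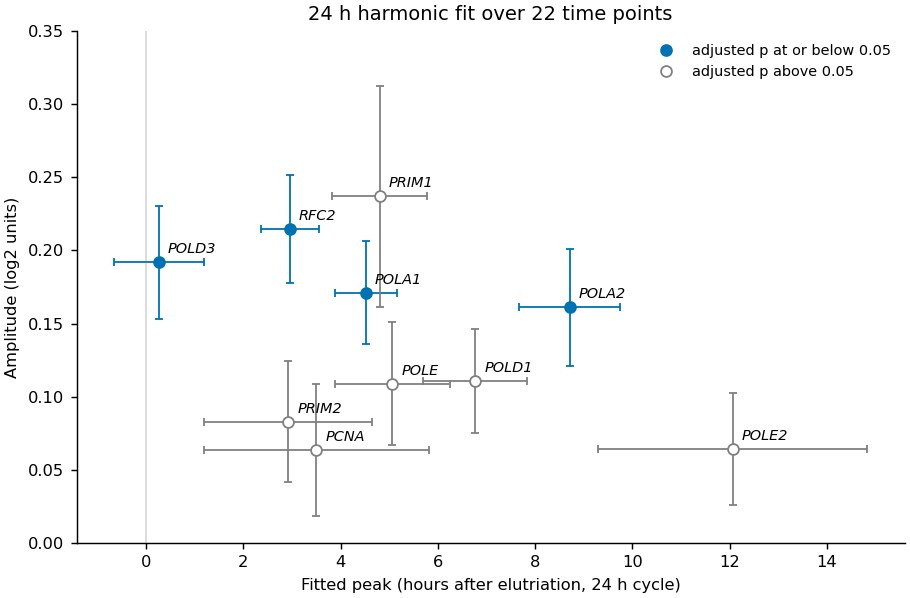
Amplitude (log2 units) against the fitted peak (hours after elutriation) of a 24 h cosine for the 10 genes over 22 time points, with bars of 1 SE and filled points for an adjusted p at or below 0.05. The filled points, POLD3, RFC2, POLA1 and POLA2, have amplitudes from 0.16 to 0.21 and peaks from 0.3 h to 8.7 h.

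Several references place these times. CCNE2 and CDC6, which act at entry into S phase, peaked at 2.0 ± 0.8 h and 2.1 ± 0.6 h with amplitudes of 0.37 ± 0.08 and 0.30 ± 0.05 log2 units, and both passed the limma test (adjusted p = 0.0139 and 0.00713). CCNB1 and CDC20, which act in mitosis, had fitted peaks at 17.8 ± 1.3 h and 19.9 ± 1.8 h and did not pass (adjusted p = 0.202 and 0.245). Of the 8 G2/M references none passed the limma test (2 at an unadjusted p under 0.05), beside 14.2% of all genes. CCNB2 and TOP2A, with fitted peaks at 20.2 h and 14.2 h, passed JTK, beside 13% of all genes.

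The second day was compared with the first at matched hours, over 10 pairs of time points 24 h apart that leave out 16 h and 18 h. PCNA alone among the 10 passed, in the lower direction, beside 6.8% of all genes, and none passed in the higher direction (1, POLA1, at an unadjusted p under 0.05), beside 12.6%. Its mean was 217 FPKM on the first day and 189 FPKM on the second (geometric means), a difference of -0.20 ± 0.06 log2 units (SE, n = 10 pairs, limma adjusted p = 0.0402), and it was lower in 8 of 10 pairs. The largest gap was between 8 h and 32 h, where the second value was 0.71 times the first, while 0 h against 24 h gave 1.07 and 20 h against 44 h gave 1.03. The call was lost with all 12 pairs (adjusted p = 0.132), without the pairs that hold 6 h and 32 h (0.121), without those of 22 h, 28 h and 30 h (0.128), with values scaled to their sum (0.136) or upper quartile (0.0617), and in 7 of 10 fits that left out 1 pair, namely each pair from 2 h and 26 h to 14 h and 38 h (adjusted p up to 0.0923). POLA1 was higher in 9 of 10 pairs, by 0.12 ± 0.05 log2 units (adjusted p = 0.102), and RFC2 in 8 of 10, by 0.09 ± 0.05 (0.207). For the other 7 the difference lay between -0.02 and 0.09.

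Markers of other cells moved over the same comparison: LYZ was higher on the second day by 0.85 log2 units (limma adjusted p = 5.64e-05), CD3D by 0.59 (0.0039) and COL1A2 by 0.42 (0.00582), which are the 3 such markers tested. Of the 8 G2/M references TOP2A was higher, by 0.51 (adjusted p = 0.00324), and of the 10 erythroid markers HBZ was lower, at -0.50 (0.00529). Of all genes 12.6% were higher and 6.8% lower. At an unadjusted limma p under 0.05, 3 of the 8 G2/M references were higher and 0 lower. Of the 10 erythroid markers 5 were lower and 0 higher at that limit. The part of all these markers in the PCNA result was not tested. Centring each library on its median changed the balance of all genes from 1547 higher and 833 lower to 1262 and 1261, and PCNA remained lower at -0.23 (adjusted p = 0.0292).

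**Figure D4:**
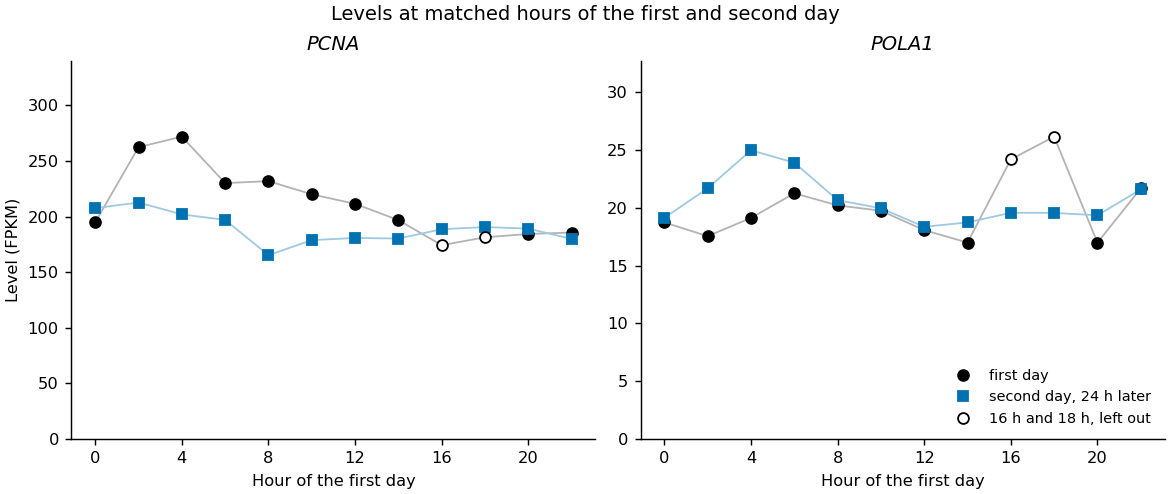
Level in FPKM of PCNA and POLA1 against the hour of the first day, with circles for the first day, squares for the time point 24 h later and open circles for 16 h and 18 h, which the test left out. PCNA of the second day lies below the first from 2 h to 14 h and close to it at 20 h and 22 h, and POLA1 of the second day lies above the first at 4 h (24.99 against 19.1 FPKM).

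At 16 h and 18 h, the libraries that the study took for technical anomalies, the 10 genes parted widely. PRIM1 stood at 161 and 171 FPKM, against 68.8 FPKM at 14 h and 71.9 FPKM at 20 h. POLE2 stood at 65.9 and 82.9 FPKM, against 33.9 and 36.2 FPKM. Both exceeded every one of their 22 other values. POLD1 stood at 36.5 and 35.3 FPKM, below every one of its other values, with 71.4 FPKM at 14 h and 66.6 FPKM at 20 h. POLD3, at 19.4 and 18.2 FPKM, also exceeded its 22 other values, of which the highest was 18.0 FPKM. At 18 h alone POLA1 (26.2 FPKM) was above and RFC2 (63.2 FPKM) below all of its 22 other values.

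Measured from the line that joins 14 h and 20 h on the log2(FPKM + 1) scale, PRIM1 lay 1.23 log2 units above (2.34-fold), POLE2 1.06 above (2.08-fold) and POLD1 0.92 below (0.53 times the flanks). Past 2-fold, 2 of 10 genes were above, beside 8.95% of the 12253 genes, and 0 of 10 below, beside 7.11%. POLA1 was displaced by 0.54, POLD3 by 0.41 and POLA2 by 0.38, each above all of 16 reference pairs of consecutive time points. RFC2 (-0.05) and PCNA (-0.10) stayed inside their reference ranges, as did PRIM2 (0.11), while POLE (0.17) lay just above its own. In all, 7 of 10 were outside, beside 71.6% of all genes, a share near the background. There is 1 library at each of these times, so the distances carry no test. The flanks were low hours for the set: 0 of 10 genes stood above their own mean at 14 h and 1 of 10 at 20 h. POLA1 stood at 16.99 FPKM at both, and POLE had its lowest value, 53.0 FPKM, at 20 h. At 16 h and 18 h POLE stood at 63.5 and 63.9 FPKM, against a median of 61.7. The part of low flanks in these distances was not tested.

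The median of all genes itself stood 0.14 above the flanks, and the 10 genes had a median of 0.28. Relative to the median of all genes PRIM1 was displaced by 1.09, POLE2 by 0.92 and POLD1 by -1.06. PRIM2 and POLE changed sign with the scaling: with libraries scaled to their upper quartile they stood at -0.12 and -0.06, and with median centring at -0.01 and 0.06. With summed FPKM the genes past 2-fold numbered 542 above and 1352 below, in place of 1097 and 871.

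The displacement went with base composition. GC content was taken as the median over all annotated transcripts of a gene, short ones included. The median length of these transcripts was 668 bases for POLE2, 799 for PRIM1 and 1024 for POLD1. By this measure POLE2 and PRIM1 were the lowest of the 10, at 38.0% and 40.6%. POLD1 was the highest, at 64.8%, against a median of 49.1% over genes. Across the 10 genes Pearson's r between GC content and displacement was -0.81 (n = 10 genes of the same 2 libraries) and across 12148 genes -0.53; genes are not independent replicates, and no test was made. PRIM2 at 41.1% and PCNA at 45.2% lay lower (0.11 and -0.10) than POLA1 at 42.8% and POLD3 at 44.4%. With the trend on GC content taken out over all genes, PRIM1 stood at 0.68, POLE2 at 0.47 and POLD1 at -0.17, and PCNA and PRIM2 at -0.46 and -0.42. The part of base composition in these values was not tested further.

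**Figure D5:**
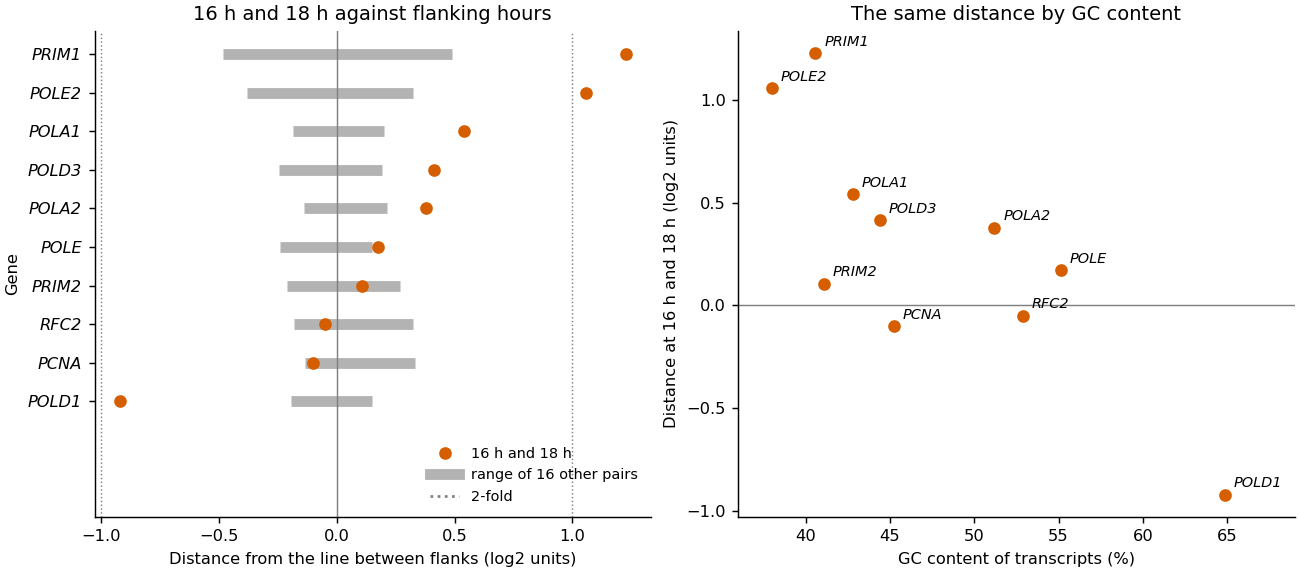
Left, distance of 16 h and 18 h from the line between 14 h and 20 h (log2 units, orange) with the range of 16 other pairs of time points in grey and dotted lines at 2-fold. Right, the same distance against the GC content of each gene's transcripts, from POLE2 at 38.0% and 1.06 to POLD1 at 64.8% and -0.92.

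PRIM1 needs care as a measurement. Its gene overlaps NACA, which encodes a chaperone of nascent proteins, on the same strand in GENCODE 29, and NACA was far more abundant, at a median of 721 FPKM. NACA stood at 810 FPKM at 14 h, at 658 and 582 FPKM at 16 h and 18 h and at 620 FPKM at 32 h, below its median in the 3 libraries where PRIM1 was highest. At 6 h, where PRIM1 was next highest, NACA stood at 801 FPKM, above its median. Pearson's r between the pair was -0.43 (n = 24 time points). Whether reads were assigned by strand is not given in the sources used here, and how reads were divided between overlapping genes was not tested. PCNA has processed pseudogenes, PCNAP1, PCNAP3 and PCNAP4, that were not in the table, so reads shared with them cannot be separated. POLD3 overlaps the noncoding AP001372.2 on its own strand, whose mean was 2.1 FPKM.

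Of 7 ratios between transcripts of these genes, 4 lay outside their range at 16 h and 18 h. The same was not counted for other pairs of genes, so this number has no background beside it. Of single genes, 71.6% were outside their reference range there, measured by the distance from the flanks. PRIM1 over PRIM2 had a median of 3.54 and a lowest value of 3.03 (8 h), and reached 7.40 at 32 h, 8.98 at 16 h and 7.66 at 18 h. POLE over POLE2 had a median of 1.72 and ran from 1.45 to 2.27, and lay outside that range at 16 h (0.96) and 18 h (0.77), where the accessory subunit was the more abundant transcript. POLD1 over POLD3 had a median of 4.97 with a highest value of 7.95 at 8 h, and stood at 1.88 and 1.94 at 16 h and 18 h. PRIM2 over POLA1 ran between 0.92 and 1.15 at the 22 time points, with 0.74 and 0.85 at 16 h and 18 h. POLA2 over POLA1 stayed inside its range there, at 2.09 and 2.04, with a lowest value of 1.69 (28 h), a median of 2.21 and a highest of 2.73 (12 h). PCNA over RFC2 also stayed inside, at 2.66 and 2.87 against a highest of 3.10 at 14 h. PRIM1 over POLA1, at 6.66 and 6.53, was inside only through its highest value, 6.83 at 32 h. The study named that library as a mild STRIPE. The median of PRIM1 over POLA1 was 3.81 and its lowest value 3.17 (28 h).

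Among themselves the 10 genes were only loosely related over the 22 time points. Pearson's r of the 45 pairs had a median of 0.15 and ran from -0.56 (POLD3 and POLA2) to 0.78 (PRIM2 and POLA1), with 8 pairs above 0.5 and 13 below 0. The next highest pair was RFC2 and POLA1 (0.73). Subunits of the same enzyme were thus among the pairs most alike, PRIM2 and POLA1, and among the pairs below 0: POLD1 and POLD3 had -0.26, POLE and POLE2 -0.24 and PRIM1 and PRIM2 -0.07. These values share libraries, among them 22 h, 28 h and 30 h, where POLA1, PRIM2, RFC2 and POLE were all high. The mean Z-score of the 10 genes was highest at 6 h (0.88, 8 of 10 above their own mean) and at 28 h (0.79, 8 of 10), and lowest at 20 h (-0.94, 1 of 10) and 14 h (-0.80, 0 of 10).

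The genes whose courses were most like the mean of the 10 were S100PBP (Pearson's r = 0.86), WDR76 (0.86), SUPT6H (0.86), XRCC3 (0.84) and ACTG1 (0.83), over 22 time points with genes whose mean was under 10 FPKM left out. For single genes the closest courses in the whole table were EXOSC6 for PCNA (0.95), LSM8 for PRIM1 (0.93), GRINA for POLE2 (0.89), PPIL2 for POLA2 (0.89) and CSTF3 for POLA1 (0.87). For RFC2 it was ACAA2 (0.85), for POLE WIPF2 (0.84), for POLD1 MED22 (0.84), for POLD3 CTDSPL2 (0.81) and for PRIM2 RAP2A (0.81). LSM8 and GRINA shared with PRIM1 and POLE2 a highest value at 32 h. Each was picked as the highest over the table, so these values describe likeness in these libraries only.

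The rest of the fork machinery was read from lists of genes. Of 28 other fork genes, all in the table, JTK called 4, beside 13% of all genes, and the limma fit 7, beside 14.2%. Among the 8 other subunits of polymerase delta, polymerase epsilon and the clamp loader (POLD2, POLD4, POLE3, POLE4, RFC1, RFC3, RFC4 and RFC5) neither test called any. At an unadjusted p under 0.05, JTK had 1 of them, RFC3, and limma 2, POLE3 and RFC3. Of 6 genes that mature the lagging strand, JTK called LIG1, the ligase that joins Okazaki fragments (adjusted p = 0.0188, phase 6 h), and the ribonuclease H2 subunits RNASEH2A (0.0104, 8 h) and RNASEH2C (0.00508, 6 h), of which the last 2 also passed the limma fit. Of the single-strand binding proteins RPA2 passed JTK (adjusted p = 0.0359), 1 of 3.

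Of 6 genes for other clamp loaders and clamp partners none passed JTK (2 at an unadjusted p under 0.05), and CHTF18 and ATAD5 passed the limma fit, with peaks at 6.7 ± 0.9 h and 0.9 ± 1.0 h. Of 5 fork protection and coupling genes JTK called none (3 at an unadjusted p under 0.05) and limma 3: CLSPN, the adaptor of the replication checkpoint (amplitude 0.32 ± 0.05, peak 3.7 ± 0.5 h, adjusted p = 0.00682), MCM10 (0.22 ± 0.05, 4.0 ± 0.6 h) and TIPIN (0.14 ± 0.03, 1.8 ± 0.8 h). Of the 6 subunits of the MCM2-7 helicase 4 passed in each test, not all of them the same, beside 13% (JTK) and 14.2% (limma) of all genes. MCM5 passed both, with a fitted amplitude of 0.28 ± 0.04 and a peak at 3.6 ± 0.5 h (limma adjusted p = 0.00454). Repair, translesion and mitochondrial polymerases, 14 of 15 in the table, gave 1 call in each test: POLB by JTK (phase 18 h) and the mitochondrial POLG by limma (peak 15.4 ± 0.9 h).

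At 16 h and 18 h, 8.95% of all genes stood past 2-fold above the flanks and 7.11% below. Of the 8 other polymerase and clamp loader subunits POLE3 (1.36), RFC1 (1.43) and RFC4 (1.01) stood past 2-fold above the flanks and POLD4 (-1.24) past 2-fold below, in log2 units. CLSPN (1.22) was the 1 fork protection gene past 2-fold. POLE3, RFC1, RFC4 and POLD4 were named after their values had been seen. On the second day POLD4 was higher by 0.35 (limma adjusted p = 0.0264) and POLE4 lower by 0.31 (0.0435), beside 12.6% of all genes higher and 6.8% lower, and no other of the 28 fork genes passed. Of the 6 helicase subunits MCM7 (-0.22, adjusted p = 0.00958) and MCM5 (-0.15, 0.0333) were lower.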

How the data were processed

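RNA-seq libraries of K562 cells at 24 time points were analysed, each assigned to its hour by its label. According to the submitters' processing notes the authors used STAR, Cufflinks and Cuffnorm with build GRCh37, and versions are not given in the sources used here. The authors deposited FPKM values, normalised for transcript length and library size, for genes with at least 1 FPKM at 12 or more time points. A cleaned table, also deposited by the authors, holds a score per gene (from Z-scoring and quantile normalization) and served as an alternative. Depth is unknown, so counting errors cannot be given and count models were not used.

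The 10 genes, the gene lists and the tests were chosen with earlier results of these data known. JTK compared the ranks of all 24 time points with a 24 h cosine at 12 phases and kept the best Kendall S, whose p came from 100000 permuted orderings. The cosine fit, with linear time as covariate and without 16 h and 18 h, and the comparison of days, with hour as block, used limma 3.58.1 (R 4.3.3) on log2(FPKM + 1), leaving out genes whose mean was under 1 FPKM. All p-values were Benjamini-Hochberg adjusted over all genes tested, with a threshold of 0.05. They measure the spread between time points of 1 culture, which need not be independent. Distances at 16 h and 18 h were taken from the line between 14 h and 20 h. Other genes named are the called members of each list (at most 4, by JTK p), the 5 genes most like the mean course, 1 most like each gene, and 4 cell cycle references. Of the listed cell type markers, 1 is not reported here. GC content (the median over all transcripts of a gene) and overlaps came from GENCODE 29 and promoter windows from RefSeq. Both are on build GRCh38, while the deposited levels used GRCh37. The scripts were tested on simulated data. Alternatives were other sets of time points, scalings, pseudocounts, periods and filters, PCHIP interpolation of 16 h and 18 h, removal of the trend on GC content, and leaving out each time point or pair.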

Additional observations from a re-analysis of the deposited data

How the results depend on the processing

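RFC2 kept its JTK and limma calls under every alternative run except a 28 h period, and POLD1 its JTK call except with summed FPKM and periods of 20 h and 28 h. JTK called 2 of the 10 genes, and 5 without 16 h and 18 h or with PCHIP interpolation, 4 without 6 h, 16 h, 18 h and 32 h, with upper-quartile scaling or with the cleaned table, 1 with a 20 h and 0 with a 28 h period. Leaving out 1 time point gave 2 to 4, the highest without 32 h, where PCNA (adjusted p = 0.0403) and POLD3 were added. The limma fit called 4, and 6 without 6 h, 16 h, 18 h and 32 h (PRIM1 and POLD1 added), 2 with a 20 h and 0 with a 28 h period, and 3 to 5 when 1 time point was left out. Over all genes JTK called 1602, against 1993 without 16 h and 18 h and 2264 with PCHIP interpolation, so these counts rose as well. Upper-quartile scaling gave 1653 of all genes, and 1551 were called with the cleaned table. The count was 1062 without 6 h, 16 h, 18 h and 32 h and 883 with the GC trend removed. Periods of 20 h and 28 h gave 270 and 437, and leaving out 6 h or 8 h gave 937 and 983. The limma fit called 1736, against 450 and 596 at 20 h and 28 h, 1038, 991 and 1013 without 10 h, 12 h or 14 h. Left out after the data were seen, 22 h, 28 h and 30 h changed the members called from 2 to 2 (JTK) and from 4 to 5 (limma, with PRIM1 added).

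For the second day, PCNA was the 1 gene called lower, and 0 were called with all 12 pairs, without the pairs of 6 h, 16 h, 18 h and 32 h, without those of 16 h, 18 h, 22 h, 28 h and 30 h (chosen after the data were seen), with upper-quartile scaling or with summed FPKM, and 0 to 1 leaving out 1 pair. Summed FPKM called 1 gene higher, POLA1. Over all genes 833 were lower, against 1261 with median centring, 477 with summed FPKM, 504 (and 991 higher in place of 1547) without 22 h, 28 h and 30 h, and 452 to 1020 leaving out 1 pair. Summed FPKM called 2094 higher, and the GC trend removed gave 1403 higher and 1126 lower. Differences near 0, none of them called, changed sign. With all 12 pairs they were -0.144 for PRIM1, 0.148 for POLD1, -0.0420 for POLD3 and -0.0892 for POLE2. Without the pairs of 6 h, 16 h, 18 h and 32 h they were 0.0567 for POLA2, 0.0267 for POLD1, -0.0437 for POLD3 and -0.0204 for POLE. They were 0.0103 for POLA2 without the pairs of 16 h, 18 h, 22 h, 28 h and 30 h, -0.00906 for POLD3 and -0.0159 for POLE with median centring, and 0.0292 for POLA2 and 0.0177 for POLD1 with summed FPKM. Leaving out 1 pair gave -0.0328 to 0.0285 for POLA2, -0.0467 to 0.0154 for POLD1, -0.0259 to 0.0451 for POLD3, -0.0140 to 0.0539 for POLE and -0.0362 to 0.122 for PRIM1.

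At 16 h and 18 h, 2 genes were past 2-fold above and 0 below. Median centring gave 1 (PRIM1) and 1 (POLD1), upper-quartile scaling, summed FPKM and quantile normalization gave 0 above and 1 below (POLD1), the GC trend removed gave 0 above, and a 1.5-fold limit gave 1 below (POLD1). Over all genes 1097 were above and 871 below, against 802 and 1126 with median centring, 579 and 1299 with upper-quartile scaling, 652 and 934 with quantile normalization, 542 and 1352 with summed FPKM, 631 and 463 with the GC trend removed, 1344 and 1308 with a pseudocount of 0.1, and 2933 and 2060 at 1.5-fold. The cause of these changes was not tested. The replicate numbers pair nothing, because each time point is 1 library. For the comparison of days, pairs were formed by hour instead, from time points 24 h apart. With 1 library per time point and unknown depth, no single value carries an error of its own.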
